A study of Mus musculus with 232 samples.

Results

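Mature GABAergic neurons are the inhibitory neurons of the dentate gyrus. Their members here are the cells whose deposited cluster name is exactly GABA at the juvenile and adult ages, 205 of the 24185 cells of the series. Expression was counted as unique molecular identifiers (UMIs), which count captured RNA molecules, in single cells on the 10X Genomics Chromium system. The juvenile members were 40 cells from male CD-1 mice at P18 (postnatal day 18), 25 cells from female C57Bl/6 mice at P19 and 34 cells from male CD-1 mice at P23. The adult members were 6 cells at P120 and 100 cells at P132, both from hGFAP-GFP mice of both sexes. In that line the human GFAP promoter, which is active in astrocytes and neural progenitors, drives a green fluorescent protein, and the labels state that fluorescent cells were sorted, so the adult members are the GABA cells of samples sorted for that reporter. All tissue was microdissected from brain sections and dissociated with papain, and the animals of an age were pooled. Age, mouse line and sorting change together between the juvenile and adult groups and cannot be told apart, and P19 differs from P18 and P23 in both line and sex.

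GABAergic neurons make GABA from glutamate with the enzymes encoded by Gad1 and Gad2, and load it into vesicles with the transporter encoded by Slc32a1. In the hippocampus they arise in the medial and caudal ganglionic eminences of the embryo and migrate in, unlike granule cells, which are made locally. Their subtypes are told apart by neuropeptides, calcium-binding proteins and receptors: dendrite-targeting cells of the hilus hold somatostatin and neuropeptide Y, one kind of basket cell holds cholecystokinin and the cannabinoid receptor CB1, and neurogliaform cells hold Reln, Ndnf or Lamp5.

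GABA cells gave 117041 to 334048 UMIs per juvenile age, 430829 at P132 and 40045 at P120. The median cell held 3294 UMIs at P18, 3852 at P19, 9289 at P23, 3067 at P120 and 3832 at P132, beside 2212, 2867, 5681, 3555 and 1988 in granule cells (cluster names GC-juv and GC-adult, together called GC). The median mitochondrial share was 10.3% at P18, 16.4% at P19, 5.47% at P23, 15.3% at P120 and 6.61% at P132. At P120, 2 of the 6 cells held over 3 times the median UMIs of that age. With fewer than 10 GABA cells P120 entered no test. Of 456 barcodes shared between libraries, 4 belonged to a GABA cell, and in 0 of these was the partner also a GABA cell. Doublets were not called, and whether the authors removed them is not given in the sources used here.

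GABA cells made up 1.47% of cells at P18 (exact 95% interval 1.06 to 2.00), 1.20% at P19 (0.779 to 1.77) and 1.26% at P23 (0.873 to 1.75), a juvenile mean of 1.31% ± 0.144 (SD, n = 3 ages). The 3 juvenile intervals overlapped. In the sorted adult samples the share was 0.440% at P120 (0.162 to 0.956) and 2.61% at P132 (2.13 to 3.17), which are shares among sorted cells. These and all later intervals cover counting error only.

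The label was borne by the markers. At least 1 UMI of Gad1, Gad2 or Slc32a1 was present in 202 of the 205 cells and all 3 genes in 128, while 3 cells had none. Gad2 was found in 88.8% of GABA cells (83.6 to 92.8) and in 0.53% of GC cells, and Slc32a1 in 72.7% (66.0 to 78.7) and 0.12%. Gad1 was found in 92.2% of GABA cells and also in 22.3% of GC cells, or in 67.3% and 8.68% with each cell thinned to 1000 UMIs. In counts per 1000000 UMIs of the class (CPM), Gad1 in GABA cells stood at 2620 at P18, 1529 at P19, 2090 at P23, 974 at P120 and 1817 at P132, against 84.8 to 110 in GC at the juvenile ages and P132. Markers of the principal neurons were low as lists, though not each of them. Slc17a7, the vesicular glutamate transporter of granule and pyramidal cells, stood at 9.28 to 59.8 CPM in GABA cells at the 4 larger ages and at 455 to 730 CPM in GC. At the juvenile ages the 6 granule cell markers had a median log2 ratio to GC of -3.05. The 5 pyramidal markers had one of -4.15 to the pyramidal neurons of CA3. Cck, on the pyramidal list, stood at 154 to 1144 CPM in GABA cells at the 4 larger ages. Trp73, Lhx1 and Lhx5, which mark Cajal-Retzius cells, another Reln-positive neuron, had 0 UMIs in all 205 GABA cells, a count that allows a share of cells with a UMI of up to 1.46% for each and does not limit the share that expresses them at levels below detection. The 4 VLMC (vascular and leptomeningeal cell) markers were also at 0 at every age. Summed over their lists, endothelial markers reached at most 25.6 CPM and microglial markers 19.8 to 41.9 CPM at the juvenile ages and 123 CPM at P132. The 6 oligodendrocyte markers together stood at 197 to 332 CPM at the juvenile ages and 525 CPM at P132. Of 6 astrocyte markers, 3 passed a level filter of 20 CPM, with a median log2 ratio to GC of -0.22 at the juvenile ages. From the juvenile ages to P132, the 4 astrocyte markers with enough counts had a median log2 fold change of 0.69.

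Genes were then ranked by how far GABA cells stood above both GC and the pyramidal neurons of CA3 (CA3-Pyr) at each of P18, P19 and P23. Of 8089 genes with a mean of 20 CPM or more in a class, 237 (2.93%) were at least 2-fold higher in GABA cells against both classes at all 3 ages, and 187 (2.31%) at least 2-fold lower, with 10 CPM added to each side of every ratio. The clusters were drawn by the authors from the same cells, so these counts describe the class and carry no test. With 50 CPM added, 83 genes were at least 2-fold higher.

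All 6 genes of the list for GABA synthesis, release and uptake were higher, and their median log2 ratio was 4.79 to GC and 5.65 to CA3-Pyr, where the median over all 8089 genes was 0.01 and -0.00. Gad2 led the whole ranking: it stood at 1663, 1418 and 1584 CPM at P18, P19 and P23 in GABA cells, at 0.542 to 3.81 CPM in GC and at 0 to 4.19 CPM in CA3-Pyr, ratios of 103 to 167. The smallest ratios of the list were those of Slc38a1 (3.52 to 5.88), a glutamine transporter that feeds GABA synthesis, and Abat (3.89 to 9.71), the enzyme that breaks GABA down. Other leading genes were Hapln1, which links the extracellular matrix, Reln, Erbb4, the neuregulin receptor, Nxph1, Npy, Slc32a1, Ndnf, the chemokine gene Cxcl14, Maf, Dlx6os1, Sst, Igf1 and Rbms3. At every juvenile age each of the 15 leading genes was at least 14.0-fold higher in GABA cells than in either other class on this scale.

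**Figure D1:**
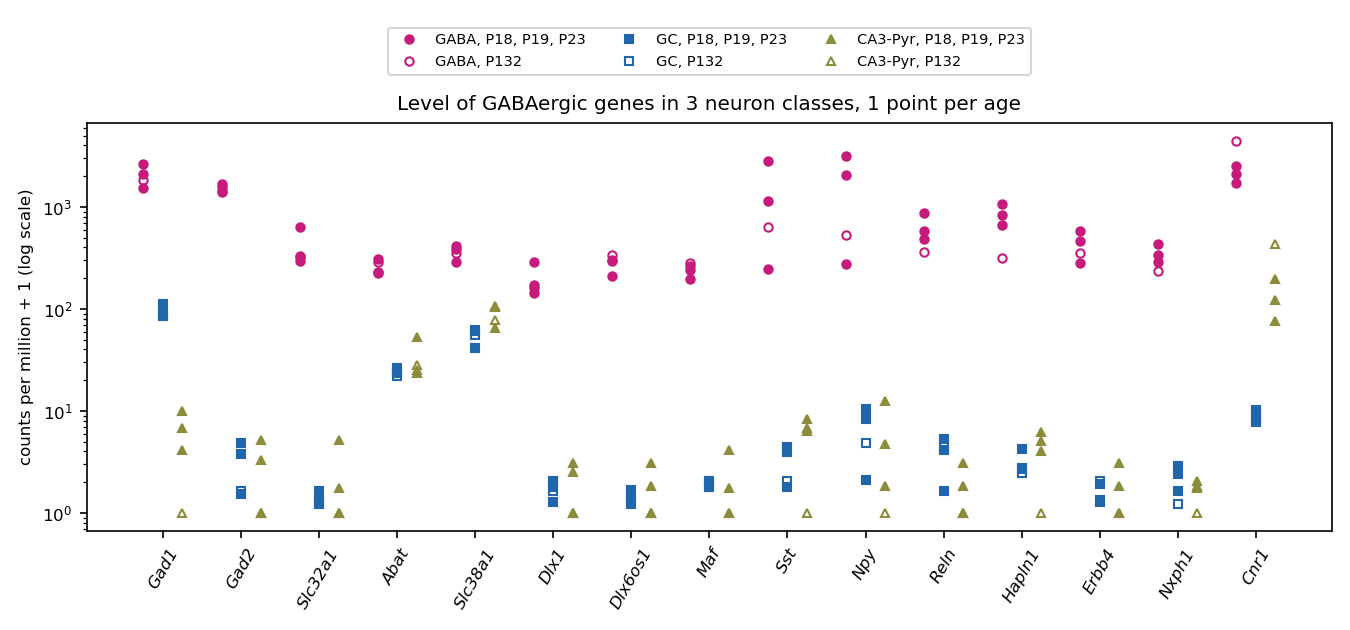
Level of 15 genes (CPM plus 1, log scale) in GABA, GC and CA3-Pyr cells. Each point is 1 age, filled for P18, P19 and P23 and open for P132. GABA points lie above those of the other classes for each gene shown, as for Gad2 at 1388 to 1663 CPM in GABA cells.

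Transcription factors that specify forebrain GABA neurons in the embryo were found in these cells. Of the 10 genes in the Dlx list, 9 passed the level filter and 7 were higher in GABA cells, among them Dlx1, Dlx2, Dlx5, Dlx6, the long noncoding RNA Dlx6os1 and Sp9. Dlx1 stood at 290, 171 and 141 CPM at P18, P19 and P23 and at 158 CPM at P132, beside 0.271 to 1.04 CPM in GC at these ages. Dlx6 and Dlx6os1 lie on opposite strands of one locus, so reads of the pair may not be separable where counting ignores strand, and the counting strand is not given in the sources used here. Of 4 factors of the medial ganglionic eminence that passed the filter, 3 were higher, Lhx6 and Maf among them. Lhx6 stood at 106, 111 and 111 CPM at the juvenile ages (mean 109 ± 3.08, SD, n = 3) and 97.5 CPM at P132. Sox6, which acts downstream of Lhx6, was seen in only 5 cells with 1 UMI each, and Nkx2-1, the eminence's early specifier, in P23 and P132 cells at 18 and 6.96 CPM. Of 6 caudal factors and markers Nr2f2, Npas1, Adarb2 and Htr3a were higher. Prox1, a caudal factor that is also the standard marker of granule cells, was lower in GABA cells (152, 42.7 and 59.9 CPM) than in GC (569, 609 and 386 CPM), but above the 10.5 to 21.4 CPM of CA3-Pyr.

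UMIs of the medial list (6 factors, among them Lhx6, Sox6, Satb1, Maf and Nkx2-1) and of the caudal list (Nr2f2, Prox1, Npas1, Adarb2, Htr3a, Sp8, Nr2f1) were summed in each cell. Caudal UMIs outnumbered medial ones in 117 of 205 cells, medial ones caudal in 69, and 19 were level, 3 of them with no UMI of either list. More cells were caudal than medial at P18 (24 and 13), P23 (17 and 13), P120 (4 and 1) and P132 (64 and 29), while P19 had 13 medial and 8 caudal cells. The P19 order depended on the setting. It was 7 medial and 7 caudal with each cell thinned to 1000 UMIs, and 10 and 9 with Maf and Nr2f1 left out. With Prox1 left out it stayed at 13 and 8. The side went with some subtype markers and not with others. Of the 34 Sst cells 21 were medial and 9 caudal, and of the 61 Nos1 cells 37 and 18. Of the 17 Pvalb cells 11 were medial and 4 caudal. Of the 35 Vip cells 1 was medial and 31 caudal, and of the 119 Cnr1 cells 16 and 95. Calb2 (3 and 29), Ndnf (14 and 30), Cck (26 and 51) and Elfn1 (17 and 27) cells were also more often caudal. Summed over ages, near even were Npy (41 and 35), Reln (52 and 48), Lamp5 (26 and 22) and Hapln1 (46 and 45) cells. The sums hid differences between ages. Lamp5 cells were 5 and 2 at P18, 4 and 3 at P19, 11 and 4 at P23 and 6 and 13 at P132. Ndnf cells were 2 and 7, 4 and 3, 6 and 5 and 2 and 15 at these ages. Npy cells were 12 and 3 at P19 and 15 and 21 at P132. Elfn1 cells were 6 and 2 at P19 and 7 and 12 at P132. Thinned to 1000 UMIs, 15 Sst cells were medial and 6 caudal, against 1 and 30 Vip cells and 14 and 68 Cnr1 cells. The Nos1 cells were then near even at 17 and 16, and so were the Pvalb cells at 5 and 4. The lists differ in gene number and level, so the balance within a cell is a ranking between cells, not a measure of origin. Over all cells thinned to 1000 UMIs the count was 45 medial and 86 caudal, 74 cells being level.

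Neuropeptide genes divided the class. Sst was found in 34 of 205 cells (16.6%, 11.8 to 22.4), Npy in 86 (42.0%, 35.1 to 49.0), Vip in 35 (17.1%, 12.2 to 22.9), Pnoc (prepronociceptin) in 87 (42.4%, 35.6 to 49.5) and Cort (cortistatin) in 33 (16.1%, 11.3 to 21.9). The same genes were found in 0.46%, 1.08%, 0.13%, 0.12% and 0.41% of GC cells. Cck was found in 41.0% of GABA and 40.5% of GC cells, so its share did not stand above that background, although its highest cell held 264 UMIs. A single cell could hold many UMIs: up to 245 of Sst, 306 of Npy and 174 of Vip. Counting Sst, Npy, Vip and Cck together, 35 cells had none, 104 had 1 of the genes, 63 had 2, 3 had 3 and 0 had all 4. Of the 17 peptide and granin genes 15 passed the level filter and 5 (Sst, Npy, Tac1, Cort and Pnoc) were at least 2-fold higher than in both other classes at all juvenile ages, with a list median log2 ratio of 2.27 to GC and 2.18 to CA3-Pyr. Vip did not meet that rule because P19 had no Vip UMI. The granin genes Scg2 and Chgb did not meet it either: Chgb stood at 155 ± 16.2 CPM in GABA cells (SD, n = 3 juvenile ages) and at 167 to 206 CPM in GC. Against CA3-Pyr, where Chgb was higher, its ratios were 0.125 to 0.236.

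Peptide and granin genes include classic targets of the cyclic AMP response element. The 8-base element TGACGTCA, which reads the same on both strands, was searched in the 250 bases before the RefSeq start of each gene (GRCm38.p6). It was present in 478 of 27025 promoters (1.77%) and in 4 of the 13 peptide and granin genes that matched by symbol, namely Sst, Cartpt, Scg2 and Chgb. Of the stretches of 68 bases around it, 3 are shown, those of genes found in more than 2 GABA cells, 5′ to 3′ in the direction of the gene with the element in capitals.
Sst, chr16:23890855-23890922, minus strand: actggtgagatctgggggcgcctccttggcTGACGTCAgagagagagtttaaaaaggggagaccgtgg
Scg2, chr1:79440057-79440124, minus strand: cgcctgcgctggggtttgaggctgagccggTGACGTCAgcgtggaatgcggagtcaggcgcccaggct
Chgb, chr2:132781540-132781607, plus strand: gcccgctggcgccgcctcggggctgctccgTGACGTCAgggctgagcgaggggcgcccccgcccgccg
The element begins 48 bases before the start of Sst, 68 before that of Scg2 and 72 before that of Chgb. Of these genes Sst was high in GABA cells and near 0 in GC, while Scg2 and Chgb were found in both classes.

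The shares of Sst and Npy were highest at P19. Sst was found in 3 of 40 cells at P18 (7.5%, 1.57 to 20.4), 11 of 25 at P19 (44%, 24.4 to 65.1), 3 of 34 at P23 (8.82%, 1.86 to 23.7) and 15 of 100 at P132 (15%, 8.65 to 23.5). The P19 interval lay above those of these 3 other ages. Npy was found in 30% of cells at P18, 72% at P19, 47.1% at P23 and 39% at P132, and the P19 interval (50.6 to 87.9) lay above those of P18 and P132 and overlapped that of P23. Vip was found in 25% at P18, 26.5% at P23 and 15% at P132 and in 0 of 25 cells at P19, which allows a share with a UMI of up to 12%. The exact P19 interval (0 to 13.7) overlapped those of P18 (12.7 to 41.2), P23 (12.9 to 44.4) and P132 (8.65 to 23.5). Calb2 (calretinin) was found in 1 of 25 cells at P19 (4%, 0.101 to 20.4), in 25% at P18, 23.5% at P23 and 15% at P132, and the P19 interval overlapped all of theirs. The intervals of the 2 P132 libraries overlapped for Sst (20.4% and 9.80%), Npy (49.0% and 29.4%) and Vip (14.3% and 15.7%). Taken alone, the P132 library of 49 cells overlapped P19 for Sst (10.2 to 34.3) and Npy (34.4 to 63.7). The library of 51 cells lay below P19 for both (3.26 to 21.4 and 17.5 to 43.8). P19 is the only female and the only C57Bl/6 age, its GABA cells had the highest mitochondrial share, and the part of these in the shares was not tested.

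**Figure D2:**
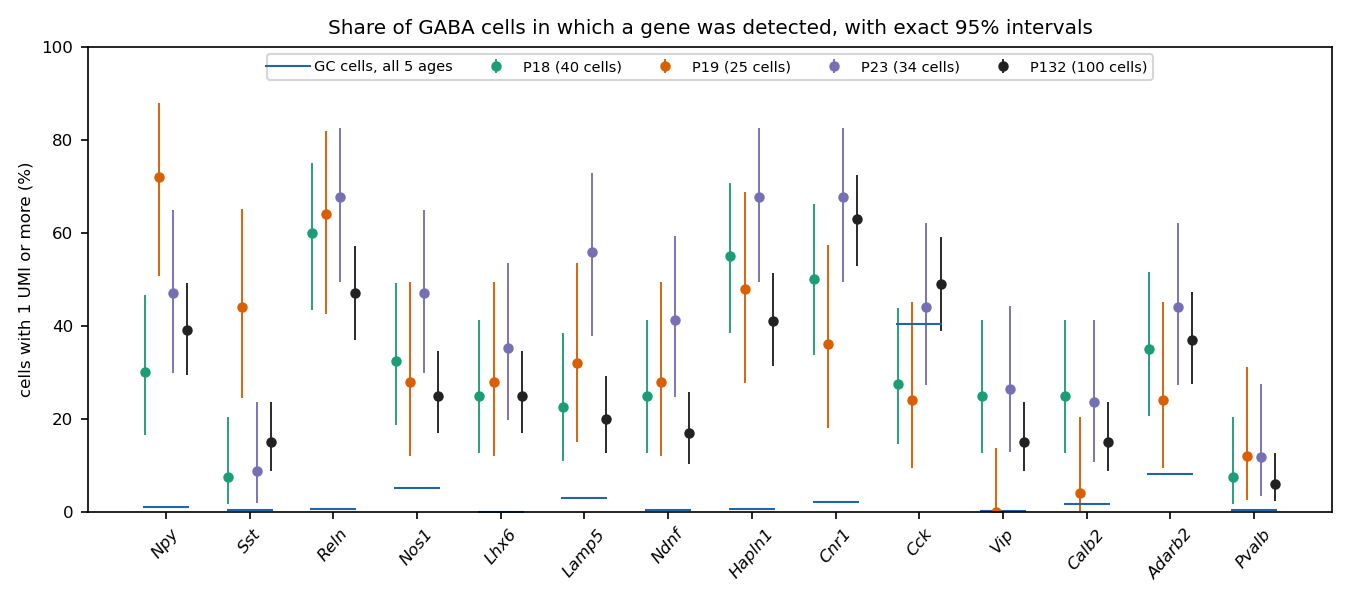
Share of GABA cells (%) with 1 UMI or more of 14 genes at P18, P19, P23 and P132, with exact 95% intervals, and a blue bar for GC cells of all 5 ages. Sst at P19 (44%) stands above the other ages, Vip is at 0 there, and the Cck share of GC cells (40.5%) is as high as that of GABA cells.

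Other interneuron markers were found in larger or smaller parts of the class. Erbb4 was found in 69.8% of GABA cells, Cnr1 (the CB1 receptor) in 58.0%, Reln in 53.7%, Maf in 50.2%, Hapln1 in 48.8%, Nxph1 in 45.4%, Adarb2 in 35.6%, Nos1 (neuronal nitric oxide synthase) in 29.8%, Lamp5 in 27.3%, Lhx6 in 26.8%, Ndnf in 23.4% and Elfn1 in 23.4%. In GC cells Adarb2 was found in 8.02%, Nos1 in 5.10% and Lamp5 in 2.95%, and each of the other 9 genes except Cnr1 (2.17%) in under 1%. Pvalb (parvalbumin), the marker of fast-spiking basket cells, was found in 17 cells (8.29%, 4.90 to 12.9), 6% to 12% at the 4 larger ages, against 0.27% in GC. Thinning to 1000 UMIs lowered every share, for example to 47.3% for Cnr1, 31.7% for Reln, 13.7% for Sst and 3.90% for Pvalb.

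Subtype genes were paired unevenly within cells. The counts add the 5 ages, share depth within a cell and are given without a test. Sst cells held Npy in 28 of 34 cases against 58 of 171 cells without Sst, and Elfn1, a postsynaptic adhesion gene, in 25 of 34 against 23 of 171. Both pairs leaned this way at all 5 ages. Sst cells less often held Erbb4 (8 of 34 against 135 of 171), Cnr1 (5 of 34 against 114 of 171), Hapln1 (4 of 34 against 96 of 171) and Adarb2 (1 of 34 against 72 of 171), again at all 5 ages. No Sst cell held a Vip UMI, which with 34 cells allows a share with a UMI of up to 8.82%.

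Vip cells were marked by Calb2 (19 of 35 against 15 of 170), the tachykinin gene Tac2 (15 of 35 against 10 of 170), Prox1 (23 of 35 against 25 of 170) and Synpr, a synaptic vesicle gene (30 of 35 against 73 of 170). Only 2 of 35 held Npy, against 84 of 170 cells without Vip. Crh was found in 7 of the 35 and in 5 of the other 170. Thinned to 1000 UMIs, Calb2 was found in 50% of Vip cells and 5.5% of the others, and Prox1 in 41.7% and 3.3%.

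Lamp5 and Ndnf marked overlapping cells rich in Hapln1. Hapln1 was found in 50 of 56 Lamp5 cells against 50 of the other 149, and in 42 of 48 Ndnf cells against 58 of 157. Nos1 went with Lamp5 (31 of 56 against 30 of 149) and Kit with Ndnf (20 of 48 against 15 of 157). The Lamp5 and Nos1 pair was not seen after thinning to 1000 UMIs, where Nos1 was found in 7.4% of Lamp5 cells and 10.7% of the others. Ndnf cells held Reln in 41 of 48 cases against 69 of 157. Synpr was found in 5 of 56 Lamp5 cells and 98 of the other 149, and Elfn1 in 1 of 56 and 47 of 149.

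Cnr1 cells were mostly separate from Lhx6 cells. Lhx6 was found in 10 of 119 Cnr1 cells and in 45 of the 86 cells without Cnr1, while Adarb2 was found in 60 of 119 against 13 of 86 and Htr3a, a serotonin-gated channel, in 35 of 119 against 1 of 86. None of the 55 cells with Lhx6 held an Htr3a UMI, which allows a share with a UMI of up to 5.45%, not a limit on expression below detection. Nos1 fell on the Lhx6 side (37 of 61 against 18 of 144), at each of the 4 ages with Nos1 cells. Pvalb cells, 17 in all, held Nxph1 in 14 cases against 79 of 188.

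**Figure D3:**
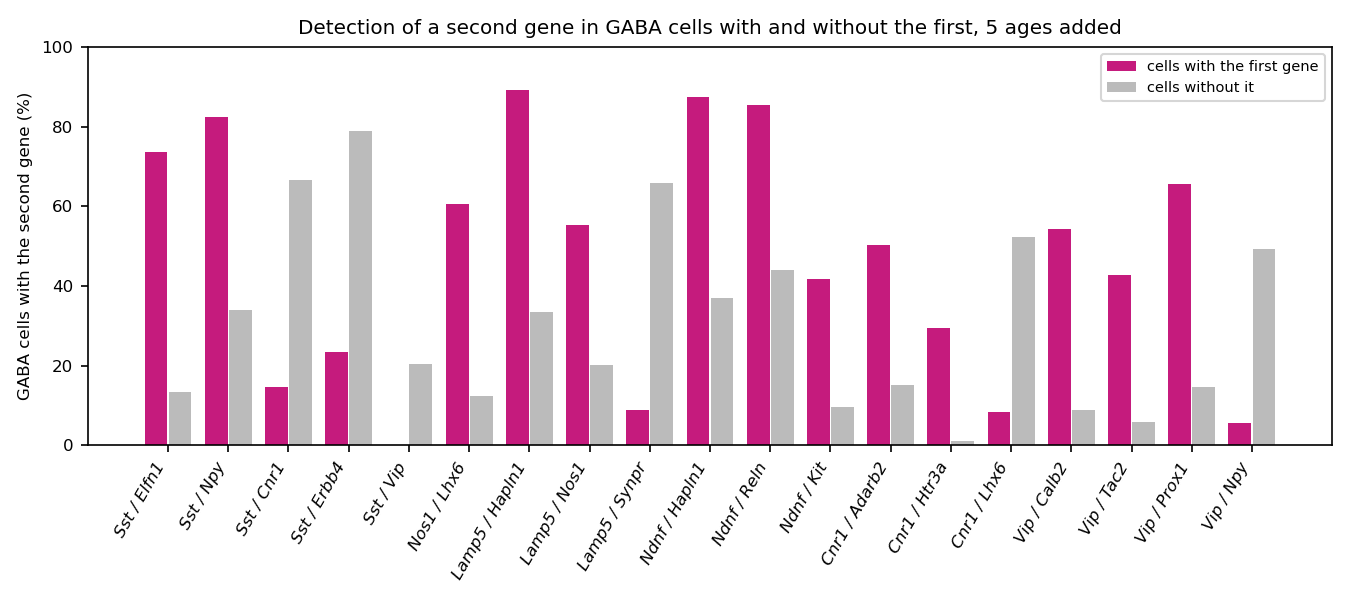
Share of GABA cells (%) in which a second gene was found among cells with the first gene (magenta) and without it (grey), 5 ages added. Elfn1 was found in 73.5% of Sst cells and 13.5% of the others, and Lhx6 in 8.4% of Cnr1 cells and 52.3% of the others.

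**Figure D4:**
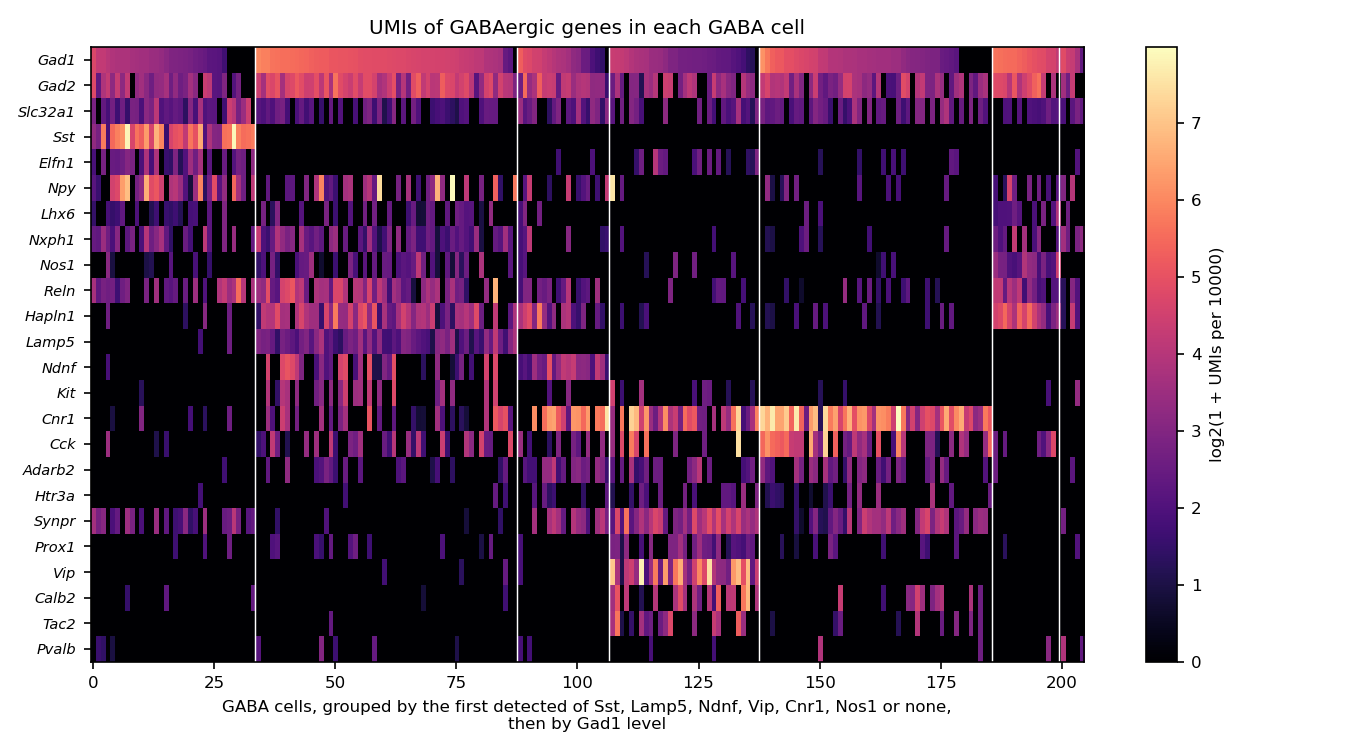
Level of 24 genes (log2 of 1 plus UMIs per 10000) in each of the 205 GABA cells, grouped by the first detected of Sst (34 cells), Lamp5 (54), Ndnf (19), Vip (31), Cnr1 (48) and Nos1 (14), then none of these (5), and ordered by Gad1 within a group. Elfn1 is densest in the first group, Hapln1 in the Lamp5, Ndnf and Nos1 groups and Calb2 and Tac2 in the Vip group.

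After thinning to 1000 UMIs, the genes that varied most between GABA cells of an age (variance over mean, median rank of P18, P19 and P23 among the 1146 genes with a mean of 0.1 UMIs or more per thinned cell at each of these ages) included Sst, Cnr1, Cxcl14, Cck and Serpini1. Thinned to 1500 UMIs, 12 of the 15 top genes were shared, without Serpini1. Of the 15 top genes at 1000 UMIs, 6 were mitochondrial and another was Malat1, a nuclear RNA. The mitochondrial gene mt-Atp6 had a ratio of 4.21 at P18, 41.3 at P19 and 8.70 at P23. At P23 the ratio of Sst was 20.7, the highest of these 1146 genes there.

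Some receptor subunits differed between GABA cells and the principal neurons. Of 13 GABA receptor subunits that passed the level filter, 2 were at least 2-fold higher than in both other classes, Gabrg3 among them, and 3 lower, Gabra2 and Gabra5 among them. Gabra5, the subunit of extrasynaptic hippocampal receptors, stood at 26.4, 17.1 and 29.9 CPM in GABA cells at P18, P19 and P23 and 168 to 398 CPM in GC and CA3-Pyr.

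Among 15 glutamate receptor subunits that passed the level filter, Gria4 and Grin3a were higher and Gria2 lower. Gria2, the AMPA receptor subunit that limits calcium entry, stood at 686, 803 and 674 CPM in GABA cells and 1528 to 2032 CPM in GC and CA3-Pyr, ratios of 0.398 to 0.444. Gria4, the AMPA receptor subunit known from interneurons, stood at 92.4, 171 and 86.8 CPM against 8.26 to 23 CPM. Each subunit is compared between classes, not with the other.

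Of 11 channel genes, 4 were higher: Kcnc2, a Kv3 channel for fast repolarization, Scn1a, the sodium channel of interneurons, and the auxiliary subunits Kcnip1 and Kcnmb2. Scn1a stood at 323, 188 and 195 CPM in GABA cells and 25.3 to 87.9 CPM in the others. Kcnc2 stood at 370, 350 and 168 CPM in GABA cells, 1.35 to 2.42 CPM in GC and 60.7 to 168 CPM in CA3-Pyr. Of 10 adhesion and perineuronal net genes 6 were higher (Nxph1, Elfn1, Erbb4, Cntnap4, Lgi2 and Hapln1), whereas Acan, the core protein of perineuronal nets, did not pass the filter and stood at 0 to 2.99 CPM. Of 8 modulator receptors Cnr1, Htr3a and Erbb4 were higher. Of 5 calcium-binding genes Pvalb and Necab1 were higher, and Calb1 stood at 94.0 to 165 CPM in GABA cells and 541 to 750 CPM in GC. None of the 8 vesicle and core neuronal genes and none of 11 dissociation and immediate early genes met the rule in either direction. The list medians for the latter were -0.84 to GC and -0.66 to CA3-Pyr on the log2 scale.

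The adult GABA cells of P132 were compared with those of P18, P19 and P23 by edgeR's quasi-likelihood test on UMIs summed per age. The lone adult age is taken to have the spread of the juvenile ones, and no label says that ages are replicates, so p-values measure the spread between these pools. Of 5987 genes tested, 7 (0.117%) rose and 7 (0.117%) fell at a Benjamini-Hochberg adjusted p under 0.05 (0.234% in all), with a median log2 fold change of -0.05. In both directions 287 genes had an unadjusted p under 0.05. The number of calls changed with the ages that entered: without P18 0 genes were called by edgeR (91 at unadjusted p under 0.05), without P23 6 and without P19 41. DESeq2 called 0 genes (89 at unadjusted p under 0.05). With P120 added, 3 genes were called. In simulated data of this design 4-fold changes were recovered in 48% of cases and 2-fold changes in 0%.

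Kctd12, which encodes an auxiliary subunit of GABA-B receptors, stood at 218, 282 and 144 CPM at P18, P19 and P23 and at 991 CPM at P132, a log2 fold change of 2.26 ± 0.48 (SE, edgeR adjusted p 0.0132). P132 was above all 3 juvenile ages. It was found in 42 of the 100 P132 cells, and 1 of them held 166 of its 427 UMIs, without which the level was 622 CPM. At P120 it stood at 2098 CPM, but 1 cell held 83 of its 84 UMIs. Without that cell the P120 level was 44.0 CPM, below all 3 juvenile ages. The call held with P120 added, that cell included (log2 fold change 2.81, edgeR adjusted p 0.0242). The log2 fold change was 2.27 without P18 and 2.00 without P23, of the same size, while the call was lost (adjusted p 0.999 and 0.0767). In GC it stood at 194, 172, 152 and 217 CPM at the same ages. In the test of the difference between the changes of GABA and GC cells, Kctd12 rose more in GABA cells by 1.94 ± 0.33 (log2, adjusted p 4.13e-06).

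Htr2c, a serotonin receptor gene, stood at 13.2, 25.6 and 15 CPM and at 102 CPM at P132 (log2 fold change 2.61 ± 0.59, edgeR adjusted p 0.0232). It was found in 22 of 100 P132 cells and in 6 of the 99 juvenile cells. Of its 44 UMIs at P132, 1 cell held 11, without which the level was 77.6 CPM. At P120, the other adult age, it stood at 25.0 CPM from 1 UMI, inside the juvenile range. Of 6 modulator receptors tested it was the one called. The log2 fold change was 2.49 without P18 and 2.43 without P23, where the call was lost (adjusted p 0.999 and 0.657).

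Crh, the gene of corticotropin-releasing hormone, fell by 3.66 ± 0.85 on the log2 scale (edgeR adjusted p 0.0275). It stood at 92.4, 0 and 159 CPM and at 6.96 CPM at P132, so the adult value lay inside the juvenile range. Its UMIs were 67 in the juvenile cells and 3 at P132, a ratio of 16 (exact 95% counting interval 5.23 to 79.4), and 1 P23 cell held 29 of them. Of 14 peptide and granin genes tested it was the one called, and their median log2 fold change was -1.02. The log2 fold change was -3.65 without P18, -2.67 without P23 and -3.81 with P120 added, and in each of these the call was lost (adjusted p 0.999, 0.996 and 0.541).

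Gm8730 and Tmem243 were among the called genes with the largest rises. Gm8730, a processed pseudogene nearly identical to a ribosomal protein gene, whose counts may hold reads of its parent, stood at 26.4, 17.1 and 21.0 CPM and at 230 CPM at P132 (log2 fold change 3.42 ± 0.50, edgeR adjusted p 3.08e-05). Tmem243, a membrane protein gene, stood at 19.8, 17.1 and 12 CPM and at 176 CPM (3.53 ± 0.54, adjusted p 4.34e-05). Both were also higher at P132 in GC (578 and 258 CPM, against 54.7 to 98.3 and 40.8 to 92.1 CPM) and in CA3-Pyr (216 and 108 CPM, against 28.9 to 66.6 and 14.8 to 37.1 CPM), so higher values at P132 were seen in all 3 classes. Without P18 the log2 fold changes were 3.55 and 3.70 with an adjusted p of 0.999 for each, and both calls held without P19, without P23 and with P120 added.

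The uncharacterized transcripts Gm26825 and BC023719 rose too. Gm26825 stood at 112, 0 and 68.9 CPM and at 355 CPM at P132 (2.50 ± 0.50, edgeR adjusted p 0.00551), and in GC at 90.2, 1.73, 122 and 214 CPM. BC023719 stood at 39.6, 0 and 0 CPM and at 132.3 CPM (3.64 ± 0.68, adjusted p 0.0026). Both had 0 UMIs in the GABA cells of P19, the C57Bl/6 age. The Gm26825 call was lost without P18 (log2 fold change 3.06, adjusted p 0.999) and with P120 added (1.93, adjusted p 0.648), where it stood at 25.0 CPM from 1 UMI. The BC023719 call was lost without P18 (adjusted p 0.999), without P23 (2.58, adjusted p 0.0659) and with P120 added (3.36, adjusted p 0.48).

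Rnf121, which encodes a ubiquitin ligase of the endoplasmic reticulum, fell by 2.93 ± 0.67 on the log2 scale (edgeR adjusted p 0.0232), from 403, 76.9 and 131.7 CPM to 25.5 CPM. In GC it stood at 654, 20.4 and 212 CPM at the juvenile ages and at 17.1 CPM at P132, low in the C57Bl/6 cells too. Snhg12, a small nucleolar RNA host gene, fell by 2.72 ± 0.65 (adjusted p 0.0384), from 72.6, 111 and 105 CPM to 13.9 CPM, and stood at 74.1 to 97.6 CPM in juvenile GC and 23.9 CPM in GC at P132. At P120, the other adult age, Rnf121 stood at 99.9 CPM from 4 UMIs, inside the juvenile range, and Snhg12 at 0. The Rnf121 call was lost without P18 (log2 fold change -2.04, adjusted p 0.999) and with P120 added (-2.44, adjusted p 0.576). The Snhg12 call was lost without P18 (-2.88, adjusted p 0.999), without P23 (-2.64, adjusted p 0.657) and with P120 added (-2.92, adjusted p 0.187).

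The other 4 genes called lower were the haemoglobin genes Hba-a1, Hba-a2, Hbb-bs and Hbb-bt. Haemoglobin made up 18.7% of the UMIs of 1 P23 cell. Without that cell 15 genes were called.

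The core of the class was not called as changed. Of the 6 genes for GABA synthesis, release and uptake 0 were called by edgeR (0 at unadjusted p under 0.05), with a median log2 fold change of -0.15, and of 9 Dlx-list genes, 23 subtype markers, 12 GABA receptor subunits, 13 glutamate receptor subunits and 10 channel genes also 0, with 0, 5, 2, 0 and 0 at unadjusted p under 0.05. The share over all genes tested was 4.79%, below that of the subtype markers and of the GABA receptor subunits. The median log2 fold change of the subtype markers was -0.57. DESeq2 called 0 of all genes. In simulated data of this design 2-fold changes were recovered in 0% of cases. The parts of depth and of the lone adult age in that were not tested. Gad2 gave -0.13 ± 0.58, Slc32a1 -0.35 ± 0.53, Npy -1.74 ± 0.74 and Hapln1 -1.43 ± 0.60 on the log2 scale (adjusted p 0.996, 0.996, 0.987 and 0.987).

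**Figure D5:**
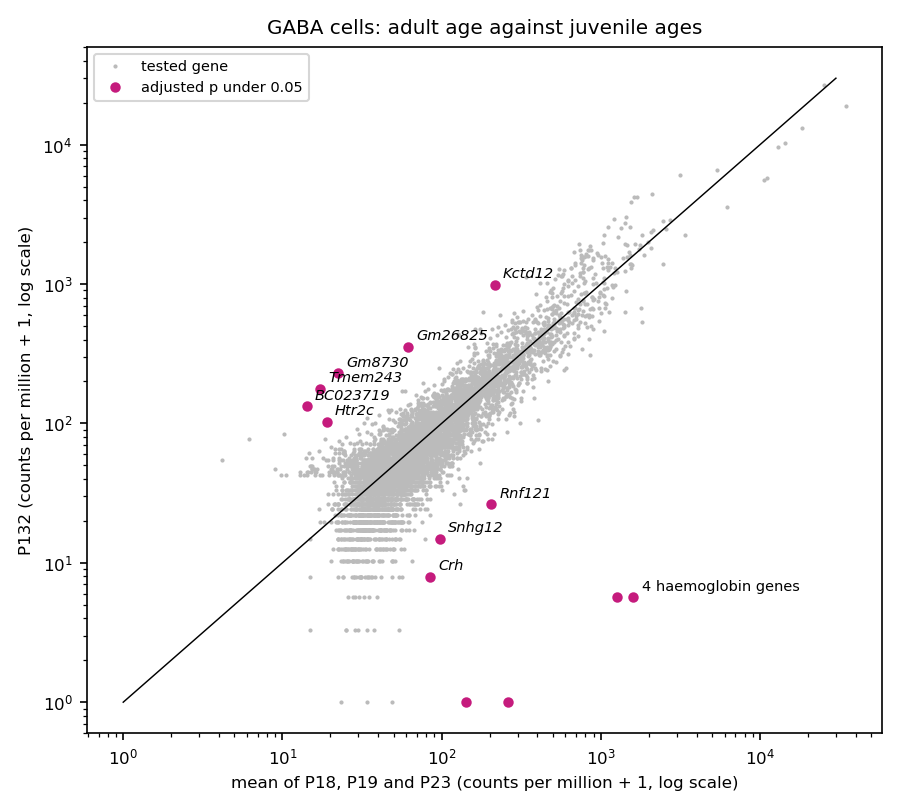
Level of the tested genes in GABA cells at P132 (vertical) against the mean of P18, P19 and P23 (horizontal), in CPM plus 1 on log axes. Magenta points are 13 of the 14 genes at an adjusted p under 0.05. Kctd12 and Gm8730 lie above the diagonal, and the 4 haemoglobin genes lie far below it.

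Cells of an age share animals and library, so the change of GABA cells was set against that of GC cells by the interaction of class and stage, with age as a block. GC is made of different deposited clusters at the 2 stages: GC-adult cells were 9.21% of GC at P18, 27.5% at P19, 1.54% at P23 and 94.6% at P132, the rest being GC-juv, so a GC difference between stages is also one between clusters. Of 11961 genes tested, 23 (0.192%) gave a more positive and 12 (0.1%) a more negative change in GABA than in GC cells (0.293% in all, edgeR). Without P18, P19 or P23 the count was 16, 69 or 19, and DESeq2 called 4. Called lower were Id2, an inhibitor of neuronal differentiation factors, and Lamp5, a neurogliaform marker. Id2 stood at 686, 384 and 1455 CPM in juvenile GABA cells and 402 CPM at P132, against 42.3, 46.4, 131 and 116 CPM in GC (difference of changes -1.76 ± 0.33, edgeR adjusted p 6.70e-05). Lamp5 stood at 112, 154 and 296 CPM and at 85.9 CPM, against 5.42, 5.89, 12.2 and 15 CPM in GC (-2.07 ± 0.48, adjusted p 0.0074). Necab1, a calcium-binding gene, stood at 218, 197 and 180 CPM and at 337 CPM at P132, against 37.9, 31.5, 21.4 and 14.6 CPM in GC (1.74 ± 0.38, adjusted p 0.00379). The Id2 and Necab1 calls were lost without P18 (adjusted p 0.117 and 0.346), and the Lamp5 call without P18 and without P23 (0.072 and 0.207).

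In 6 of the 9 genes named by fold for a more positive change, to which Necab1, a list member, does not belong, the level in GC moved further than that in GABA cells. Snhg11, a long noncoding RNA of neurons, stood at 1557, 2187, 1835 and 1615 CPM in GABA cells and at 112, 185, 79.7 and 15.6 CPM in GC at P18, P19, P23 and P132. Sema3c, a secreted guidance cue, stood at 376, 282, 293 and 279 CPM in GABA cells and at 22, 9.70, 10.4 and 0.634 CPM in GC. GABA cells thus held their level of both genes within the juvenile spread or close to it, while GC values at P132 lay below all juvenile ones.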

How the data were processed

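Members were the cells labelled GABA at P18, P19, P23, P120 and P132, and they and the gene lists were chosen with earlier results of these data known. The authors deposited 1 table of UMI counts per gene and cell, which the values show as whole numbers, and 1 table of each cell's age, line, sex and cluster. Per the submitters' processing notes, Cell Ranger and the mm10 build were used, with no version. The annotation, cell filters, clustering and any doublet removal are not given in the sources used here, and genes are named by symbol. No columns of values without a sample were present (0).

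Counts were summed over the cells of a class at each age, the age pool being the replicate, and divided by the total, times 1000000, for CPM. Tests used edgeR 4.0.16 (limma 3.58.1, R 4.3.3) with TMM, filterByExpr and glmQLFTest, two-sided, on ages with 10 or more cells of the class, leaving 2 residual degrees of freedom. SE is the size of the log2 fold change over the square root of F. The script was tested on simulated counts. DESeq2 1.42.0 was an alternative. Genes named from a test passed an adjusted p of 0.05, averaged at least 50 CPM and kept the ages of the 2 stages apart (in the interaction, by their GABA to GC ratio). Up to 10 per direction were taken by fold, plus list members. Several genes that enter the fits and list counts are not reported here. BC023719 and the haemoglobin genes were named after their values were seen. Shares carry exact Clopper-Pearson 95% intervals, and a count of 0 a limit of 3 counts. Python 3.11.15, numpy 2.4.6, scipy 1.17.1 and pandas 2.3.3 were used. Alternatives covered scaling, filters, tool, added CPM, ratio, thinning and leaving out each age. Those chosen after seeing the data were adding P120, leaving out the haemoglobin-rich cell and the changed factor lists.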

Additional observations from a re-analysis of the deposited data

Results flagged for a closer look

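The change from the juvenile ages to P132 differed between GABA and GC cells by the interaction test (edgeR) for 16 named genes, with adjusted p from 1.43e-12 (Fxyd7) to 0.04005. The differences, GABA minus GC on the log2 scale, were 5.01 for Fxyd7, 4.11 for Sema3c, 2.82 for Camk4, 2.71 for Snhg11, 2.51 for Nrip3, 2.37 for Cadps2, 2.03 for Slc35f1, 1.94 for Kctd12 and 1.88 for Nefl. They were -2.54 for Nr3c1, -2.16 for Camk2d, -2.07 for Lamp5, -1.87 for Hlf, -1.84 for Pcp4, -1.79 for Nrsn2 and -1.76 for Id2. DESeq2 called 2 of the 16, Fxyd7 and Snhg11. Without P18 the calls of 7 were lost (Nefl, Nr3c1, Camk2d, Lamp5, Hlf, Nrsn2 and Id2), without P23 those of 7 (Slc35f1, Nefl, Nr3c1, Lamp5, Hlf, Pcp4 and Nrsn2), with P120 added those of 2 (Pcp4 and Nrsn2) and with no filter beyond 1 count those of 3 (Nefl, Hlf and Nrsn2). GC at P132 is mostly the GC-adult cluster and at the juvenile ages mostly GC-juv. The GC level moved further than the GABA level in 6 of the 9 positive and 3 of the 7 negative genes. Fxyd7, a regulator of the sodium pump, stood at 119, 68.4, 65.9 and 72 CPM in GABA cells at P18, P19, P23 and P132 and at 92.7, 28, 82.6 and 1.90 CPM in GC. Pcp4, a calmodulin-binding peptide gene of granule cells, stood at 112, 282, 530 and 99.8 CPM in GABA cells and at 2249.5, 2359, 3169 and 3112 CPM in GC. Nr3c1, the glucocorticoid receptor gene, stood at 72.6, 17.1, 92.8 and 18.6 CPM in GABA cells and at 68, 68.9, 70.8 and 108 CPM in GC.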

How the results depend on the processing

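The count of 14 genes called between P132 and the juvenile ages was 0 with DESeq2, 3 with P120 added and 0 to 41 with each juvenile age left out. P132 could not be left out, since no adult age would remain. The interaction count of 35 was 23 with no filter beyond 1 count, 4 with DESeq2 and 16 to 69 with an age left out. The other scaling, filter and cell settings kept both counts within 1.5 times. The 237 genes higher than in GC and CA3-Pyr were 83 with 50 CPM added, 68 at a ratio of 4 and 284 to 339 with an age left out. The juvenile share of 1.31% was 1.86% among neuronal classes, 1.61% with Immature-GABA cells added and 1.23% to 1.37% with an age left out. The median share of cells over the subtype markers was 19.8%, and 10.5% after thinning to 1000 UMIs and 12% at 2 UMIs or more. A minimum of 20 cells per age and leaving out cells over 3 times the median UMIs removed nothing from either test. Of the other settings tried on each gene called between stages, 40 lost the call and 59 kept it; on interaction genes 33 lost and 103 kept it, and no direction reversed in either. No paired analysis was possible because, within GABA cells, each age gives 1 sample and the number after a title only divides cells of an age. The test against GC has age as its block. Depth limits what can be said of genes under about 20 CPM, where an age holds only a few UMIs.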

Other observations

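GABA and Immature-GABA cells of P23 shared a library, 34 and 24 cells. Gad1 stood at 2090 CPM in GABA and 273 CPM in Immature-GABA cells, Gad2 at 1584 and 235 CPM, Hapln1 at 671 and 7.58 CPM and the synaptic vesicle gene Syt1 at 2371 and 409 CPM. The reverse order was seen for Sox11 (59.9 and 864 CPM), Dcx (29.9 and 402 CPM) and Igfbpl1 (0 and 281 CPM), genes of young neurons. The Dlx genes did not follow 1 order: Dlx2 stood at 65.9 and 235 CPM, Dlx6os1 at 209.6 and 227 CPM and Dlx6 at 65.9 and 45.5 CPM. With 1 sample of each kind these values carry no test.

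Another 4 cells named GABA came from P5, outside the ages described. They held 50367 UMIs, with Gad1 at 715 CPM, Gad2 at 79.4 CPM and no UMI of Sst, Vip, Cnr1, Reln or Hapln1, beside 389 Immature-GABA cells of P5 with Sst at 1759 CPM and Npy at 1403 CPM.

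At the level of the sexes named in the labels, Xist stood in GABA cells at 0 CPM at P18 and 2.99 CPM at P23, the male ages, 615 CPM at P19, the female age, and 449 and 476 CPM at P120 and P132, the mixed pools.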
